A study of Equus caballus with 93 samples.

Results

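The genes described here are 150 of the 15838 genes measured in cells from the synovial fluid of horses with a surgically made osteochondral fragment in a middle carpal joint. They are the genes that were higher 2 weeks after surgery than before it and whose mean over weeks 4 to 10 kept at least 0.67 of that early rise. The measured values themselves chose them. Libraries whose log2 CPM (the log of a gene's reads scaled to library size) had an SD over genes of 2 or more were used, 70 of 93, and are called wide below. In these libraries a mean was taken for each week with the arms pooled. A gene was kept if its mean over the wide libraries was 1 or more, week 2 stood 1 or more above week 0 (a doubling), and the average of weeks 4, 6, 8 and 10 stood above week 0 by at least 0.67 of that early rise. The conditions were met by 215 genes. After 2 of these were left out, 213 remained, and the 150 with the largest rise at week 2 form the set. The rise at week 2 and the later rise are therefore given as a description, with no test.

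Osteoarthritis was induced surgically in 16 horses aged 2 to 5 years, 7 mares and 9 geldings, and all were exercised 5 days a week from week 2. Saline (phosphate buffered, called Control) or iPAAG, a 2.5% injectable polyacrylamide hydrogel, was given once as 2 mL into the operated joint on day 14, in 8 horses each. Fluid was taken before surgery (week 0) and at weeks 2, 4, 6, 8 and 10, its cells were pelleted, and their total RNA was sequenced with a stranded low-input kit. Both arms carry the fragment, the surgery, the exercise and the elapsed time, so a change over weeks shared by the arms cannot be told apart among these. The labels used here do not spell out which joint each fluid sample came from, nor whether the week 2 fluid was drawn before the injection. The wide libraries numbered 8, 7, 7, 6, 7 and 6 in Control and 7, 7, 3, 4, 6 and 2 in iPAAG horses at weeks 0, 2, 4, 6, 8 and 10. The iPAAG arm at week 10 thus rests on 2 horses.

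Synovial fluid of a resting joint holds few cells, which are mostly macrophages, other mononuclear cells and shed lining cells. Surgery, blood and cartilage or bone debris bring in further leukocytes, and the lining can release stromal cells, so the makeup of the pellet can change along with expression inside each cell. In such bulk samples, fewer cells of a type and less RNA per cell cannot be told apart. The genes are named by Ensembl horse identifiers, and 0 of the 15838 could be paired with a symbol, so the labelled cell type could not be checked against its markers and no role can be given for a member. Identifiers are printed for 4 members only, and the other members are described by counts and ranges.

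As a group, the members were higher from week 2 on. Their mean level in the wide libraries was 3.36 ± 0.65 log2 CPM (SD, n = 15) before surgery and 5.42 ± 0.28 (SD, n = 14) at week 2. It was 5.32 ± 0.54 (SD, n = 10) and 5.30 ± 0.55 (SD, n = 10) at weeks 4 and 6. By week 8 it was 5.12 ± 0.51 (SD, n = 13), and by week 10 it was 4.86 ± 0.28 (SD, n = 8). The week 0 libraries lay between 1.71 and 4.42 and the week 2 libraries between 4.77 and 5.89, so these groups did not overlap. The rule favours such a gap, so nothing is read from it. At week 10 the libraries lay between 4.39 and 5.14. The lowest of them was below the highest week 0 library, and the mean level at week 10 was the lowest of the means after surgery.

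**Figure D1:**
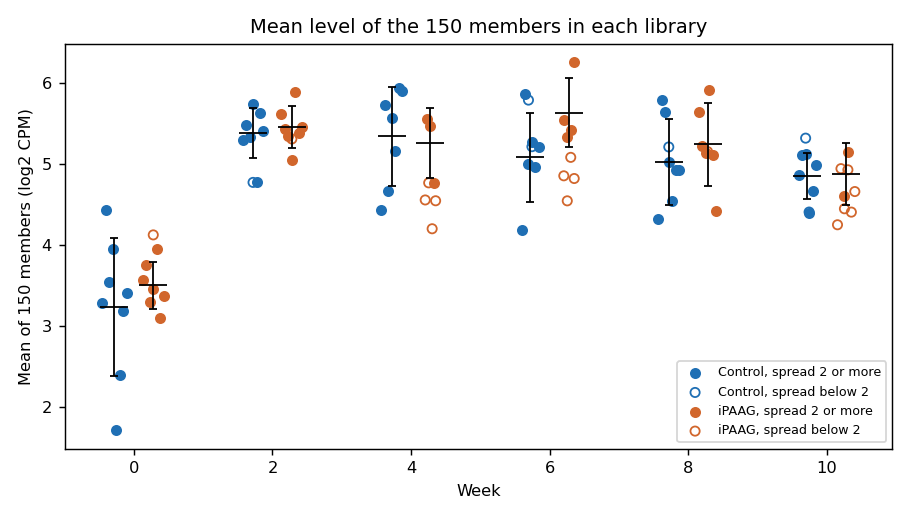
Mean log2 CPM of the 150 members in each library by week, with Control in blue and iPAAG in orange; filled points are wide libraries, open points are libraries of spread below 2, and bars are the mean and SD of the wide libraries. At week 0 the wide libraries lie between 1.71 and 4.42, and at week 2 all of them lie between 4.77 and 5.89.

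In both arms the mean level was higher at weeks 2 and 10 than at week 0. These same libraries, with the arms pooled, chose the members, so nothing is read from that. In Control horses the mean level of the members was 3.23 ± 0.85 (SD, n = 8) before surgery, rose to 5.38 ± 0.31 (SD, n = 7) by week 2 and ended at 4.86 ± 0.28 (SD, n = 6) by week 10. In iPAAG horses it was 3.50 ± 0.29 (SD, n = 7) at week 0 and 5.45 ± 0.26 (SD, n = 7) at week 2, and the 2 libraries of week 10 stood at 4.60 and 5.14. At weeks 4, 6 and 8 the means were 5.34, 5.08 and 5.02 in Control and 5.26, 5.63 and 5.24 in iPAAG horses. The arms overlapped at each week.

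As a share of all reads in genes, the members took a median of 0.765% at week 0, with libraries from 0.415% to 1.28%. At week 2 they took 2.26%, with libraries from 1.59% to 2.85%. The medians at weeks 4, 6, 8 and 10 were 2.76%, 2.73%, 2.26% and 1.77%. Weeks 0 and 2 did not overlap by this measure, but these same libraries chose the members, so nothing is read from that gap. The median share was past its highest value by week 10. Over all 93 libraries the reads in genes ranged from 1737741 to 39916655. The wide week 8 library of Control horse 11 had 6076026 reads, 44.8% of them in its top gene, and 2211 genes without a read. It was kept among the wide libraries.

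Single members rose at week 2 by between 1.21 and 5.36 on the log2 scale, with a median of 1.75. The rise was 2 or more in 61 members and 3 or more in 21. The median over all 15838 genes was 0.01. Over weeks 4 to 10 the members stood between 0.90 and 5.26 above week 0, with a median of 1.58, and all genes had a median of -0.05. The median share of the early rise that members kept was 79.0%, and 27 members had a later mean at or above their week 2 mean. When each library was centred on its own median, the all-gene median of the week 2 change moved from 0.01 to 0.16, so each rise given here is relative to a scale that can shift by that amount.

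The limits of the rule fell where genes were closely spaced. The last member and the next gene both rose by 1.21. The lowest share kept by a member was 67.1%, and the highest share just under the limit was 66.8%. Of the 649 genes with a mean of 1 or more and an early rise of 1 or more, 434 kept less than the rule asks.

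Read support before surgery varied widely. Of the 150, 16 had a week 0 mean below 0 log2 CPM, with a median rise of 3.52 at week 2. The rule asks for a mean of 1 or more over the wide libraries, so such a member could enter only through high later weeks, and nothing is read from its larger rise. The median member had 208.5 reads in a week 0 library, 2 members had a median below 10 reads, and 26 had at least 1 wide week 0 library without any read. In libraries after week 0 only 5 members had one without a read. A value without reads is set by the 0.5 reads added before the log, so the rise of such a member can be understated or overstated.

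Within horses, the early rise is described in the libraries that chose the members. Wide libraries at both week 0 and week 2 existed for 14 horses. Between 120 and 149 of the 150 members were higher at week 2 in each of them, with a median of 141. Of all genes, between 41.8% and 61.0% were higher. The median rise of the members ran from 0.79 in Control horse 2 to 3.38 in Control horse 11, which were also the horses with the highest and lowest mean level at week 0 (4.42 and 1.71). The week 0 library of Control horse 11 stood apart, with 2360 genes without a read against at most 744 in the other week 0 libraries. From week 0 to week 2, 61.0% of all genes were higher in that horse, with an all-gene median of 0.30. The next highest median rise of the members was 2.31, in Control horse 13. Counted by member, 71 were higher in all 14 horses, 112 in at least 13, and no member in fewer than 9. No wide week 2 library overlapped a wide week 0 library in 16 members (10.7%), against 0.398% of all genes. This contrast chose the members, so nothing is read from that comparison or from the counts by horse.

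The later weeks gave counts in a similar range. Between 108 and 148 members stood above the horse's own week 0 over weeks 4 to 10 in the 15 horses with such libraries, with median rises of 0.83 to 2.52. Of all genes, between 38.7% and 60.4% did. The mean of these weeks also chose the members. At week 10, with 7 horses, between 109 and 142 members stood above week 0, with median rises of 0.62 to 1.84, against 41.3% to 56.4% of all genes.

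**Figure D2:**
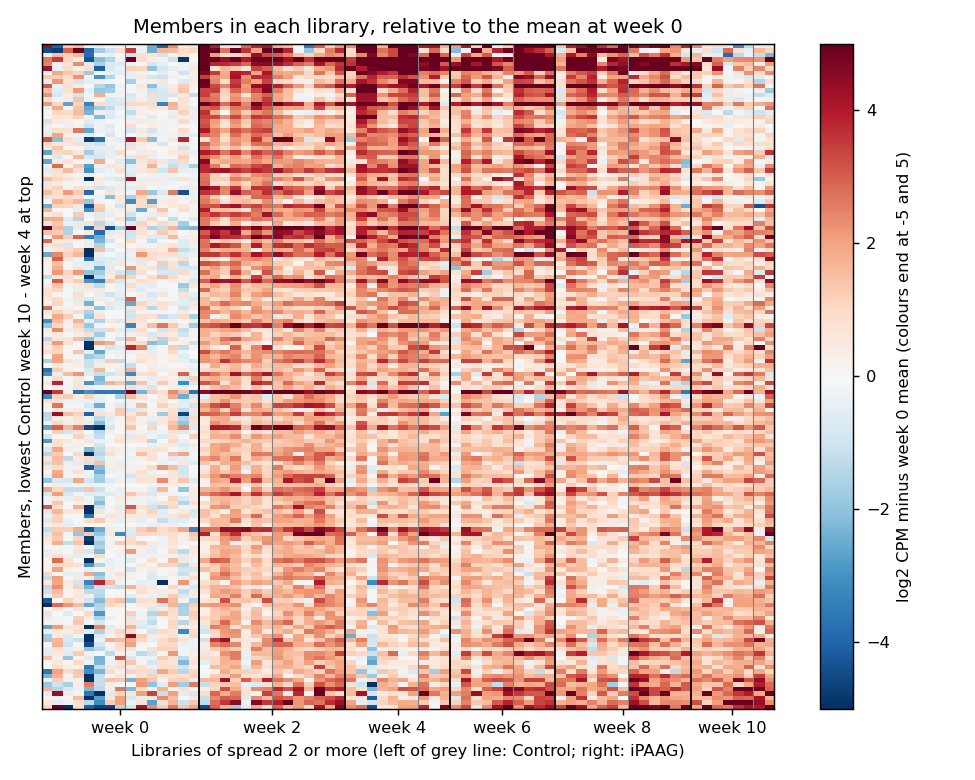
Each member (a line of the picture) in each wide library (a column), as log2 CPM minus the member's week 0 mean, ordered by the Control change from week 4 to week 10 with the lowest at the top; black lines divide weeks, grey lines divide Control (left) from iPAAG (right), and colours end at -5 and 5. Most cells after week 0 are red, and the uppermost members pale at week 10.

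The 23 libraries with a spread below 2 were not used to choose the members, and each later one is described against the same horse before surgery. Only 1 of them was from week 0, iPAAG horse 14, so no test was made. In that horse the members averaged 4.12, 5.31 and 4.54 log2 CPM at weeks 0, 2 and 4, each in a library of low spread. From week 0 to week 2, 140 of the 150 members were higher (93.3%, against 49.6% of all genes), with a median change of 0.89. From week 0 to week 4, 103 were higher (68.7%, against 52.3% of all genes), with a median change of 0.60. The other low-spread library of week 2, Control horse 10, averaged 4.77, and 91 members were higher in it than in that horse's wide week 0 library (60.7%, against 49.8% of all genes). Over the 22 low-spread libraries after week 0, 20 of them set against a wide week 0 library that the rule had used, between 83 and 146 members were higher, with a median of 111. The lowest count, in iPAAG horse 3 at week 10, was 55.3% of the members, against 50.4% of all genes. The 20 low-spread libraries of weeks 4 to 10 averaged between 4.20 and 5.79, with a median of 4.79. In the 23 libraries the values lie closer together over all genes. At week 0 the members sat low among all genes, at a median percentile of 38.4 in the wide libraries. Values drawn together can place low genes higher, so the share over all genes is not a like background. The part of this in the counts was not tested.

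ENSECAG00000056325 had the largest early rise. At week 0 its log2 CPM ran from -5.09 through a median of -0.63 to 2.75 in the 8 Control libraries and from -5.61 through -0.63 to 4.55 in the 7 iPAAG libraries. At week 2 it ran from 3.27 through 5.02 to 5.79 in Control and from 2.90 through 4.82 to 5.90 in iPAAG horses. All week 2 libraries lay above all but 1 of the 15 week 0 libraries, an iPAAG library at 4.55, and the gene was higher at week 2 in 14 of 14 horses.

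This gene then differed between the later weeks. In Control libraries it ran from 2.79 through 5.95 to 7.76 at week 4 (n = 7) and from 0.67 through 1.67 to 4.67 at week 10 (n = 6). In iPAAG horses it stood at 5.95, 7.06 and 4.55 in the 3 week 4 libraries and at 1.51 and 4.65 in the 2 week 10 libraries. Among wide Control libraries only horse 2 at week 10, at 4.67, reached the range of week 4. The low-spread Control libraries of week 10 stood at 3.18 and 3.10, inside that range. Low-spread iPAAG libraries lay between 3.13 and 3.60 at week 4 and between 2.22 and 2.99 at week 10. The median of the 4 iPAAG libraries at week 6 was 6.83, and that of the 6 at week 8 was 5.18.

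ENSECAG00000058491, the member with the next largest rise, was at or near no reads in many week 0 libraries. Of the 15, 6 held no read of it, 5 of them Control. The Control libraries ran from -5.80 through -5.37 to 3.44 and the iPAAG libraries from -5.76 through -0.77 to 6.45. At week 2 the range was much narrower, from 2.43 through 2.98 to 3.76 in Control and from 2.25 through 2.92 to 4.05 in iPAAG horses. The gene was higher in 12 of 14 horses, and the highest week 0 library, iPAAG horse 3 at 6.45, stood above every week 2 library.

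Its later levels were more scattered. Week 4 ran from -1.22 through 2.47 to 4.84 in 7 Control libraries and stood at 0.89, 1.78 and 0.34 in iPAAG horses. Week 10 ran from -0.11 through 2.34 to 3.90 in 6 Control libraries and stood at -0.26 and 2.16 in iPAAG horses. At week 6 the Control median was 3.10, with libraries from -1.92 to 5.19. The Control values of week 10 lay inside the Control range of week 4, and the 2 iPAAG values lay on either side of the iPAAG range of week 4. Low-spread iPAAG libraries stood higher, between 4.77 and 4.87 at week 4 and between 3.26 and 4.68 at week 10. The low-spread Control libraries of week 10 stood at 3.25 and 4.40. In iPAAG horse 14, with low spread at both weeks, the gene stood at 3.72 at week 0 and 4.02 at week 2.

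**Figure D3:**
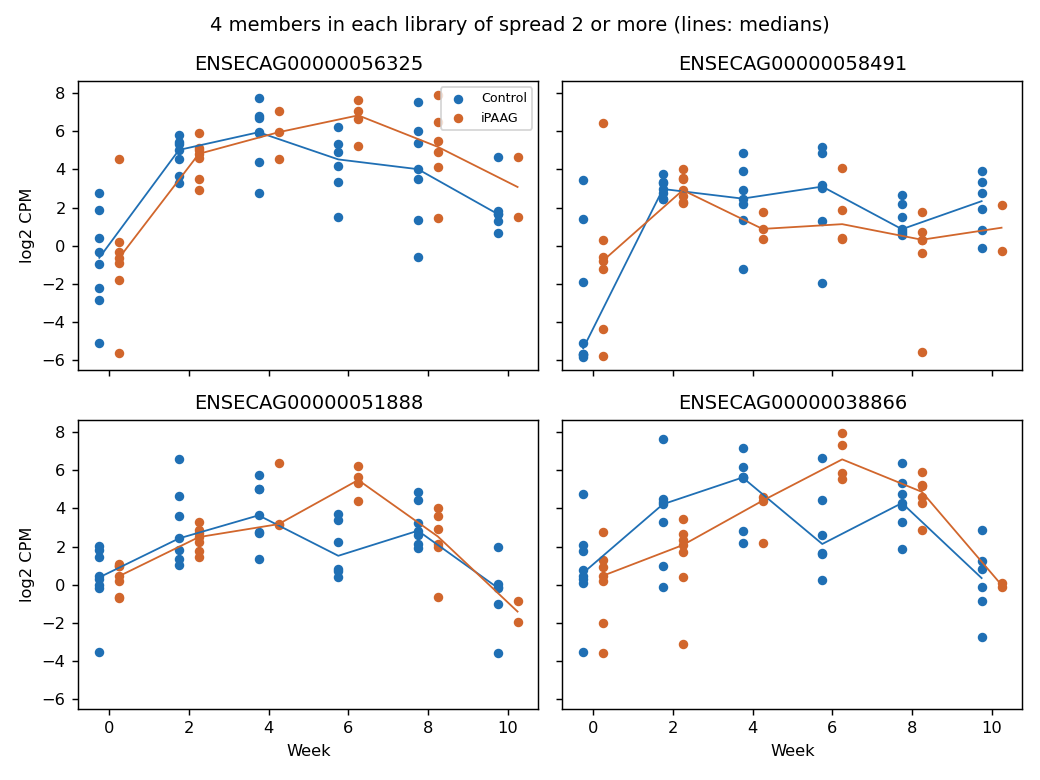
Log2 CPM of 4 members in each wide library by week, Control in blue and iPAAG in orange, with lines through the medians. ENSECAG00000051888 and ENSECAG00000038866 have Control medians of -0.15 and 0.35 at week 10, against 0.39 and 0.63 before surgery, and ENSECAG00000056325 has 1.67 against -0.63.

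Whether the raised level lasted through the later weeks was then tested. The rule used only the mean of weeks 4 to 10, so the difference of week 10 from week 4 was not used to choose members. With the arms averaged, 35 members (23.3%) differed between these weeks in limma with Benjamini-Hochberg adjustment over all genes, against 20.9% of all genes. Of these, 30 fell (20.0%, against 10.5% of all genes) and 5 rose (3.33%, against 10.4%). In this fit the share of members that differed was near the background, which did not hold with all 93 libraries (below). The split by direction was more one-sided than the background, a difference that was not tested. At an unadjusted p below 0.05 there were 51 members (34.0%), against 35.0% of all genes. The median change of the members was -0.30 and that of all genes 0.03, and 95 of the 150 fitted changes were below 0. The members' median was -0.60 with horse as a fixed replicate block, -0.50 without iPAAG horse 14 and -0.10 without iPAAG horse 5.

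The counts depended on the libraries and on single horses. Without iPAAG horse 5, one of the 2 iPAAG horses with a wide week 10 library, 8 members and 2.65% of all genes were called, and all 8 fell. Without iPAAG horse 12, 1 of the 3 with a wide week 4 library, 21 members were called, against 12.4% of all genes. With all 93 libraries there were 28 of the 150, against 9.40% of all genes. Without a replicate block there were 34 and with the fixed block 37, each against 17.7%. In these fits the share of members called was above that of all genes, by the most with all 93 libraries. That difference was not tested.

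The 30 members that fell had changed by -0.99 to -4.92, with a median of -1.99. Their early rise had a median of 2.08. Their median week 4 level was 7.48 log2 CPM and their median week 10 level 5.46. At week 10 they stood a median of 0.55 above week 0, 6 of them stood at or below it, and 1 kept 0.67 of its early rise. The 5 members that rose had changed by 1.01 to 2.50, and all 5 kept at least 0.67 of the early rise at week 10. Of the 115 others, 91 did. These sets were chosen by the change from week 4 to week 10, so their levels and shares kept at week 10 are a description only.

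Over all 150 members, 144 were above their week 0 mean at week 10, by a median of 1.48, and the range was -1.03 to 3.91. At least 0.67 of the early rise was kept at that single week by 97 members and not by 53. For the mean of the later weeks, the description as a rise that persists to week 10 holds in every member by the rule itself. At week 10 alone it held for 97 of 150 by the same limit. Week 10 is part of the mean that the rule used, so the rule favours the counts of members raised at single later weeks. At every later week 78 members stood 1 or more above week 0. The week of the highest mean was week 2 for 60 members, week 4 for 35, week 6 for 21, week 8 for 10 and week 10 for 24.

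ENSECAG00000051888 had the lowest fitted change from week 4 to week 10. In Control libraries it ran from -3.50 through 0.39 to 2.02 before surgery and from 1.06 through 2.43 to 6.58 at week 2. It then ran from 1.34 through 3.64 to 5.77 at week 4, against -3.57 through -0.15 to 1.97 at week 10. The iPAAG libraries ran from -0.66 through 0.46 to 1.09 before surgery and from 1.44 through 2.50 to 3.31 at week 2. They stood at 3.15, 6.39 and 3.18 at week 4, and were down to -0.87 and -1.93 at week 10. The 4 wide iPAAG libraries of week 6 were at 5.63, 6.22, 5.36 and 4.38, above all 6 wide Control libraries of that week, which ran from 0.39 through 1.52 to 3.69. By week 10 the wide libraries of both arms were back in or below the range of week 0. The 8 low-spread libraries of week 10 did not reach down to that level and lay between 2.51 and 4.13. At week 6, the low-spread libraries stood at 5.47 and 4.14 in Control and between 3.34 and 5.22 in 4 iPAAG horses. The change from week 4 was -4.92 ± 0.76 (SE; limma adjusted p = 5.2e-05), and 4 of the 5 Control horses with both weeks moved down.

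ENSECAG00000038866 had the next lowest change. Its Control values ran from -3.53 through 0.63 to 4.74 before surgery and from -0.10 through 4.22 to 7.64 at week 2. They then ran from 2.20 through 5.62 to 7.16 at week 4, against -2.75 through 0.35 to 2.86 at week 10. The iPAAG values ran from -3.56 through 0.48 to 2.77 before surgery and from -3.08 through 2.08 to 3.44 at week 2. They stood at 4.41, 4.61 and 2.18 at week 4, were at 7.94, 7.30, 5.84 and 5.52 at week 6, and were at 0.09 and -0.10 at week 10. The ranges of weeks 0 and 2 overlapped in both arms, and week 10 lay within the range of week 0. The 8 low-spread libraries of week 10 lay between 1.88 and 4.36. The change from week 4 was -4.18 ± 1.01 (SE; limma adjusted p = 0.00343). It was -4.16 without iPAAG horse 5, with a limma adjusted p of 0.0547.

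The change from week 4 to week 10 of the 2 members with the largest early rise is set side by side. ENSECAG00000056325 changed by -3.46 ± 1.01 (SE; limma adjusted p = 0.0124), down in 5 of 5 Control horses, and by -2.67 without iPAAG horse 5 (limma adjusted p = 0.200). ENSECAG00000058491 changed by -0.30 ± 1.20 (SE; limma adjusted p = 0.885), down in 3 of 5 Control horses. The difference between these genes was not tested.

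Because no iPAAG horse had wide libraries at both weeks, the arms were also taken apart, an alternative chosen after the data had been seen. In Control horses alone, 42 members (28%) differed between week 10 and week 4, against 21.2% of all genes. Of these, 34 fell, against 12.7% of all genes, and 8 rose, against 8.55%. Leaving out 1 Control horse at a time gave 23 members without horse 15, against 12.3% of all genes, 27 without horse 2, against 11.2%, and 49 without horse 1, against 24.1%. In iPAAG horses alone, 0 members were called by limma, against 0.101% of all genes (0.0379% higher and 0.0631% lower), and 18 members (12%) had an unadjusted p below 0.05, against 14.9%. That comparison had 3 libraries against 2.

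The arm difference in this change was itself tested, and 0 members and 0% of all genes were called by limma. At an unadjusted p below 0.05 there were 3 members (2.00%), against 3.97% of all genes. Of the 34 members that fell in Control horses, 32 had a fitted change below 0 in iPAAG horses, with a median of -1.26 against -2.20 in Control. All 8 that rose in Control had a fitted change above 0 in iPAAG horses, with medians of 1.10 and 1.58. No share over all genes was taken for these counts, so nothing is read from them. The iPAAG change compared 3 libraries with 2 from other horses. Without iPAAG horse 5, the iPAAG median of the 150 members went from -0.24 to 0.18. Control week 10 libraries lay wholly below those of week 4 for 5 members (3.33%), against 3.84% of all genes, and wholly above for 1 member (0.667%), against 1.29%.

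**Figure D4:**
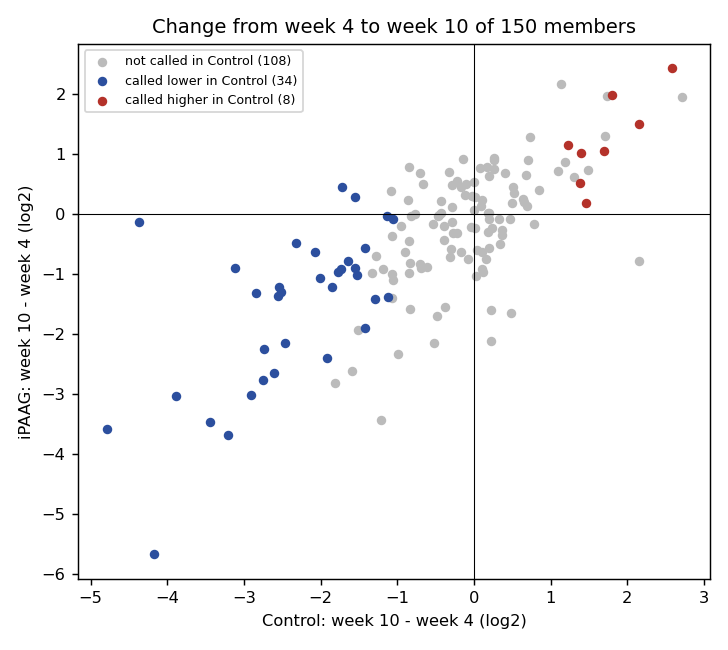
Fitted change from week 4 to week 10 of each member in Control (horizontal axis, log2) and in iPAAG horses (vertical axis, log2), with the 34 members that fell in Control in blue, the 8 that rose in red and the rest in grey. Of the 34 blue points, 32 lie below 0 on the iPAAG axis, and all 8 red points lie above 0. The iPAAG values rest on 3 libraries at week 4 and 2 at week 10.

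The 34 members that fell in Control horses are followed over all weeks as a description, because they were chosen by this change. Their mean level had Control medians of 4.45, 7.13, 7.87, 5.98, 7.01 and 5.07 for weeks 0, 2, 4, 6, 8 and 10. The corresponding iPAAG medians were 4.15, 6.34, 6.50, 7.77, 6.65 and 4.95. The Control course dipped at week 6, where the iPAAG course was at its highest, in the wide libraries. The week 6 values rest on 6 Control libraries, from 5.69 to 7.33, and 4 iPAAG libraries, from 7.06 to 8.19. In the low-spread libraries of week 6 the order was the other way, with 6.02 and 7.36 in Control and 4.91 to 5.85 in 4 iPAAG horses.

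The treatment question is whether the level after the injection moved differently in the arms. The arm difference was taken as the iPAAG change minus the Control change, each from week 2 to the average of the later weeks. It was called by limma for 0 members and for 0% of all genes. At an unadjusted p below 0.05 there were 14 members (9.33%), against 10.6% of all genes. The fitted differences of the members ran from -1.72 to 2.82, with quartiles of -0.37 and 0.62 and a median of 0.07, and 80 of the 150 were above 0. The median of all genes was -0.09. The members' median lay on the other side of 0 in 8 of 26 alternatives, and was -0.33 with all 93 libraries, so it gives no direction. The SE of a member's difference ran from 0.24 to 1.61, with a median of 0.57, so a doubling in a typical member was within 2 SE. The smallest adjusted p among members was 0.348.

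**Figure D5:**
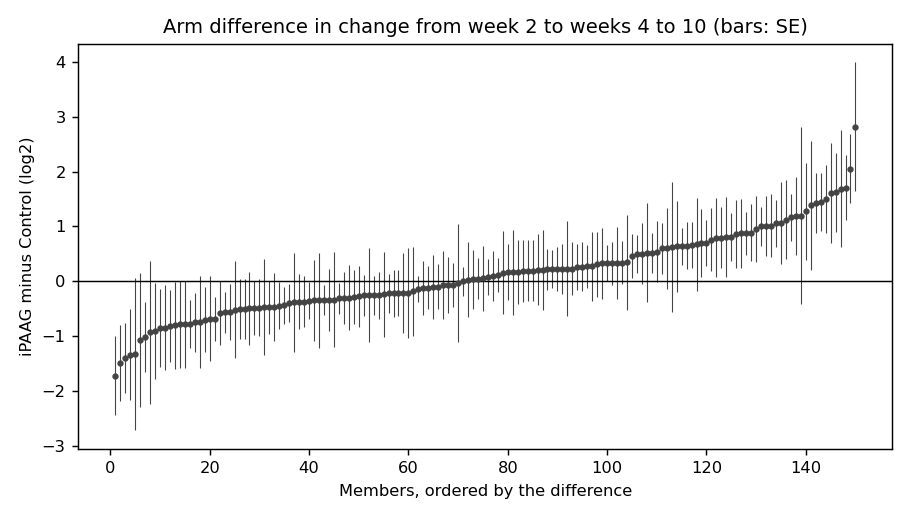
Fitted arm difference (iPAAG minus Control, log2) in the change from week 2 to weeks 4 to 10 for each of the 150 members in order of size, with bars of 1 SE. The differences run from -1.72 to 2.82, and 80 of them lie above 0.

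Among the identified members, the largest arm difference was that of ENSECAG00000038866, at 2.82 ± 1.18 (SE; limma adjusted p = 0.384, unadjusted p = 0.0196). It was 1.39 ± 1.18 (SE; limma adjusted p = 0.692) for ENSECAG00000056325, 1.28 ± 0.89 (SE; limma adjusted p = 0.617) for ENSECAG00000051888 and -1.33 ± 1.39 (SE; limma adjusted p = 0.752) for ENSECAG00000058491. None of the 4 passed the threshold.

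The arms were also compared in the change from week 0 to week 2 and at week 0. Whether the week 2 fluid was drawn before the injection is not given by the labels. In the change from week 0 to week 2, 0 members and 0% of all genes differed between arms by limma. At an unadjusted p below 0.05 there were 11 members (7.33%), against 3.99% of all genes, and the members' differences ran from -4.22 to 1.59, with a median of -0.15 that was 0.10 without Control horse 11. At week 0 itself, 0 members and 0% of all genes differed. At an unadjusted p below 0.05 there were 7 members (4.67%), against 4.59%, and the differences ran from -1.05 to 3.38, with a median of 0.15. The smallest adjusted p among members was 0.873 in the first comparison and 0.947 in the second.

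Within an arm and week, the members tended to be high or low together. After the mean of each arm and week was removed, the mean correlation between pairs of members over the 70 wide libraries was 0.24. It was 0.04 over all genes and 0.02 over the 11818 genes with a mean of 1 or more. A single component held 25.9% of the members' variance around the group means. The 34 members that fell in Control horses had a mean correlation of 0.48 among themselves, the other 116 one of 0.25, and pairs across the sets one of 0.17. These correlations are a description. The points share libraries, depth and scaling, and their part in the correlations was not tested.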

How the data were processed

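The authors deposited 1 table of log2 values, named there as voom log2 CPM, for 15838 genes in 93 libraries of synovial fluid cells. STAR 2.7.10b, EquCab3.0 and limma 3.62.2 are named in the submitters' processing notes. How reads were counted, whether strand was used and how low genes were removed is not given in the sources used here, so overlapping or near-identical genes may share reads. On the scale set by each library's smallest value, 100% of values were whole reads plus 0.5, within 0.05 reads. Arm, horse and week came from the labels. The members and lists were chosen with earlier results of these data known.

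Limma 3.58.1 in R 4.3.3 fitted 12 arm-by-week means to all genes in the 70 wide libraries, with horse as a random block (duplicateCorrelation, consensus correlation 0.09), a mean-variance trend and Benjamini-Hochberg adjustment over all genes at a threshold of 0.05. The block follows from repeated sampling of the same horses. The mean correlation of deviations from group means was 0.10 for pairs of libraries of the same horse and -0.01 for other pairs. No libraries were identical. Alternatives varied the libraries, scaling, low-gene filter, added reads, block, weights, spread covariate and horses. Python 3.11.15 with pandas 2.3.3 and matplotlib 3.10.9 gave the other values.

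Marker and pathway lists could not be used, because the identifiers have no symbols here. By the rule for named genes, identifiers are printed for the 2 members with the largest early rise and the 2 with the lowest fitted change from week 4 to week 10.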

Additional observations from a re-analysis of the deposited data

Results flagged for a closer look

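Arm-by-week groups with at least 4 wide libraries were examined for the members' mean level and for the 4 identified members. Of these 50 sets of values, 3 had a library far from the others, and chance alone gives about 1 in 20 groups. For ENSECAG00000056325, Control horse 2 at week 10 stood at 4.67 log2 CPM, and the other 5 libraries lay between 0.67 and 1.83. For ENSECAG00000058491, iPAAG horse 17 at week 8 stood at -5.59, and the other 5 lay between -0.38 and 1.75. For ENSECAG00000051888, Control horse 11 at week 0 stood at -3.50, and the other 7 lay between -0.16 and 2.02.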

How the results depend on the processing

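For the change of members from week 4 to week 10, leaving out 1 horse at a time gave 8 to 41 members and 419 to 3661 genes, against 35 and 3307 with all horses. With all 93 libraries 28 members and 1488 genes were called, and with iPAAG horses alone 0 members and 16 genes. The other alternatives left the count of members within 1.5 times. No replicate block gave 34 members, and horse as a fixed replicate block gave 37, each against 17.7% of all genes. The fixed block could not estimate the arm difference at week 0. It moved no count of members called by over 1.5 times, but members at an unadjusted p below 0.05 went from 14 to 23 for the arm difference in change from week 2, from 18 to 30 for iPAAG horses alone and from 3 to 10 for the arm difference in change from week 4 to week 10.

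The arm difference in change from week 2 was called for 0 members under each alternative and for 1 gene with median centring. Leaving out 1 horse gave 0 to 1 genes for it and 0 to 1 genes for the arm difference at week 0. No iPAAG horse had all 6 weeks wide, so the 13 horses with all 6 weeks were used for that alternative.

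For ENSECAG00000058491, the change from week 4 to week 10 turned to 0.21 with all 93 libraries and to 0.19 without iPAAG horse 5 (from -0.82 to 0.19 without 1 horse), and its arm difference turned to 0.15 with all 93 libraries. For ENSECAG00000038866, voom weights gave -4.13 (limma adjusted p = 0.0993). The cause was not tested.

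The rule kept 63 of the 150 members with all 93 libraries, 99 with Control and 91 with iPAAG horses alone, 139 with median centring, 144 with 2 reads added, and 130 to 140 without 1 horse. The median early rise stayed between 1.65 and 1.86 and the later one between 1.45 and 1.66 without 1 horse. Whether the members lost under these alternatives were those with few reads at week 0 was not tested.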
